A study of Mus musculus with 24 samples.

Results

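Transcripts of 8 cytochrome P450 genes of the Cyp2 family, Cyp2j5, Cyp2j11, Cyp2j13, Cyp2d9, Cyp2d12, Cyp2d26, Cyp2a4 and Cyp2a5, were followed in the kidneys of mice in which Pex5 was targeted for deletion in the renal tubule. The genes were chosen by symbol, 8 of the 55335 genes counted, and 40 other protein-coding Cyp2 genes of the annotation served only for context. All 8 passed the filter on low counts.

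Pex5 is the import receptor that brings enzymes into the peroxisome. In cKO mice (Pex5 lox/lox/Pax8-rtTA/LC1), a Cre recombinase that doxycycline (DOX) switches on under the Pax8 promoter, which is active along the renal tubule, deletes the floxed gene. Their littermate controls, Ctrl mice, carried the floxed alleles (Pex5 lox/lox) without the transgenes and received the same DOX, which began at 8 weeks of age and lasted 2 weeks, and all were on the C57BL/6J background. Whole kidneys of 24 mice, 6 males and 6 females of each genotype (Ctrlm, cKOm, Ctrlf and cKOf), were taken 4 weeks after the end of DOX. In hours from lights on, the labels give ZT9 for the killing of the mice but ZT3 for all experiments, so the hour is uncertain. From residual Pex5 mRNA and protein, the study proposes that excision was incomplete in cKOf mice. It also reports Pex5 mRNA significantly lower in both sexes, and almost no peroxisomes in proximal tubules of cKOm or cKOf by electron microscopy. Sex and the extent of deletion therefore cannot be told apart where male and female changes are compared. Cells outside the tubule kept Pex5, and the labels name no separate litters or batches.

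Cyp2 enzymes sit in the membrane of the endoplasmic reticulum and hold a heme that activates oxygen, with electrons passed on by P450 reductase and cytochrome b5. Cyp2j enzymes oxidize arachidonic acid to epoxides that act on vessels and on tubular salt transport. Cyp2d and Cyp2a enzymes hydroxylate drugs and steroids, and several members of these subfamilies are known in the mouse for different levels in males and females.

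The Cyp2j genes lie on the minus strand of chromosome 4 (GRCm38), Cyp2j13 at chr4:96027534-96077546, Cyp2j11 at chr4:96294508-96348662 and Cyp2j5 at chr4:96628773-96664154. On chromosome 15, Cyp2d9 (chr15:82433437-82456845) and Cyp2d12 (chr15:82555072-82560403) are on the plus strand and Cyp2d26 (chr15:82790101-82794294) on the minus strand. Cyp2a4 (chr7:26307169-26315088) and Cyp2a5 (chr7:26835305-26843548) are on the plus strand of chromosome 7.

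Cyp2a4 and Cyp2a5 are near-identical copies, and the reads that tell them apart decide every value given for either gene. Their coding sequences, both 1485 bases, differed at 23 positions (98.5% identity), and the longest stretch without a difference was 216 bases. The stretch of 120 coding bases with the most differences, positions 550 to 669 counted from the start codon in exons of both genes, held 6 of them. It is shown from the annotated transcripts, with the differing bases in capitals, because it is where a read is most easily assigned.
Cyp2a4: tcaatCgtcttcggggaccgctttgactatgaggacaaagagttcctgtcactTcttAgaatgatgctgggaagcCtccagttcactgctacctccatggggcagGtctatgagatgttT
Cyp2a5: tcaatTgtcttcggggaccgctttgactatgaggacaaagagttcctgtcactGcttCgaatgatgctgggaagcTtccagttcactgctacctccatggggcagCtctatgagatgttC
One of these differences, C625T from Cyp2a4 to Cyp2a5, falls in codon 209, which is known to set the preference of the enzymes for steroids or coumarin.

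Upstream of the start sites the copies were as alike. The 249 bases before the starts, given here by RefSeq on GRCm38.p6 at chr7:26306943-26307191 and chr7:26835089-26835337 on the plus strand, differed at 4 positions, again in capitals. The gene positions given above begin earlier, at 26307169 and 26835305, so the end of each stretch lies inside the gene by that annotation. They are shown because the ratio of the 2 transcripts differed between Ctrlf and cKOf kidneys (given with the levels).
Cyp2a4: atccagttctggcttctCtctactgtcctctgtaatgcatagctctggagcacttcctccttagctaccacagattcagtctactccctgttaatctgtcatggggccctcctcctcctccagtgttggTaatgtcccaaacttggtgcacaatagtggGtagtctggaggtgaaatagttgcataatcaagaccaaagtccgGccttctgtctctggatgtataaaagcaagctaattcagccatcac
Cyp2a5: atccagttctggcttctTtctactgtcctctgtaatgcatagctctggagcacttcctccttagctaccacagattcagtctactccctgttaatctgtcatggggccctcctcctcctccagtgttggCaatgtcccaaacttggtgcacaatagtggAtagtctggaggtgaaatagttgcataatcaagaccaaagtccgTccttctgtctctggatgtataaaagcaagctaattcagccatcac
Both held the letters GTTAAT, a half-site of the factor HNF1, outside the differing positions.

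Promoter entries of 300 bases, 250 before and 50 after the start, matched 7 of the 8 genes, without Cyp2d12. On either strand, GTTAAT occurred in the entries of Cyp2a4, Cyp2a5 and Cyp2d26, and in 7.13% of 32544 promoters. The androgen and glucocorticoid receptor half-site AGAACA occurred in those of Cyp2j11 and Cyp2d26, and in 18.9% of promoters. The nuclear receptor half-site AGGTCA occurred in those of Cyp2j5, Cyp2a4 and Cyp2a5, and in 16.2% of promoters. TTCNNNGAA, a STAT site, occurred in that of Cyp2j11 and in 8.33% of promoters. The entries of Cyp2j13 and Cyp2d9 held none of these letters.

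How far reads can be assigned differed between subfamilies. Of all stretches of 50 bases in the transcript, 61.2% in Cyp2a4 and 59.2% in Cyp2a5 occurred in no other gene, against 71.0% in Cyp2d9, 82.1% in Cyp2d12, 89.5% in Cyp2d26 and at least 98.7% in the 3 Cyp2j genes. Of stretches of 100 bases, the shares were 88.8% in Cyp2a4, 85.6% in Cyp2a5, 90.1% in Cyp2d9 and 96.2% in Cyp2d12. They were 99.6% in Cyp2d26 and 100% in the Cyp2j genes. The share that applies depends on the length of the reads, which is not given here. Cyp2d9 was 93.3% identical in its coding sequence to Cyp2d11, 92.5% to Cyp2d10 and 92.1% to Cyp2d12. Reads that aligned at more than 1 place had been set aside by the authors, so the counts of the Cyp2a pair, Cyp2d9 and Cyp2d12 rest on the stretches that differ and are uncertain in that respect. Cyp2a4 also overlaps an antisense gene, Gm42375, on which 1224 reads were counted in all 24 kidneys together, and the strand setting of the counting was not given in the sources used here.

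The libraries held from 19376152 to 28470831 gene-assigned reads. Levels are given as CPM, in which each gene's count is set against the TMM-scaled size of its library. Pex5 itself, counted over all exons and from all cells, was 54.2 ± 4.63 CPM in Ctrlm and 43.7 ± 1.94 in cKOm kidneys (mean ± SD, n = 6 per group, edgeR adjusted p = 0.0219), without overlap, and 50.2 ± 6.96 in Ctrlf and 43.5 ± 3.55 in cKOf kidneys (adjusted p = 0.177), with overlap. The interaction did not pass (-0.10, SE 0.12, adjusted p = 0.754).

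Some male kidneys stood apart by hepatocyte transcripts, which matter here because the liver expresses several Cyp2 genes strongly. The mean log2 CPM of 19 hepatocyte markers was between 4.62 and 4.71 in 5 kidneys, 4 of the 6 Ctrlm and 1 of the 6 cKOm mice, and between 0.07 and 2.70 in the other 19. Albumin (Alb) was 224 to 661 CPM in the former and 15.1 to 60.2 in the latter. None of the 19 markers was at 0 in all kidneys, and 4 of them had a median above 10 CPM in the other 19 kidneys. The tests in males were therefore repeated without these 5 kidneys, and for the members and the lists the results are given in both ways where the call or count changed. This was a choice made after the marker levels were seen, which left 2 Ctrlm and 5 cKOm mice.

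In males, 6 of the 8 genes fell in cKO mice: Cyp2d9 the most, then Cyp2d12, Cyp2a4, Cyp2j13, Cyp2j5 and Cyp2j11. Cyp2a5 and Cyp2d26 did not pass the threshold. In females Cyp2d12 and Cyp2a5 fell and the other 6 did not pass. The threshold, an adjusted p of 0.05 in edgeR's quasi-likelihood test, was passed by 9.05% of the 16092 genes tested in males (4.90% lower in cKOm) and by 0.851% in females (0.460% lower in cKOf). The median log2 change of the 8 genes was -1.15 in males, beside 0.01 over all genes tested, and -0.13 in females, beside 0.00. Without the 5 kidneys with hepatocyte transcripts, 4 of the 8 passed in males, namely Cyp2j5 (log2 change -0.57, adjusted p = 0.00883), Cyp2d9, Cyp2d12 (-2.15, adjusted p = 0.0299) and Cyp2a4, beside 3.75% of all genes then tested. Pex5 itself then had -0.26 (adjusted p = 0.382). In 4 of the 8 genes no cKOm kidney overlapped any Ctrlm kidney, which was so for 7.38% of all genes. In females all 8 overlapped, and 0.559% of all genes did not.

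**Figure D1:**
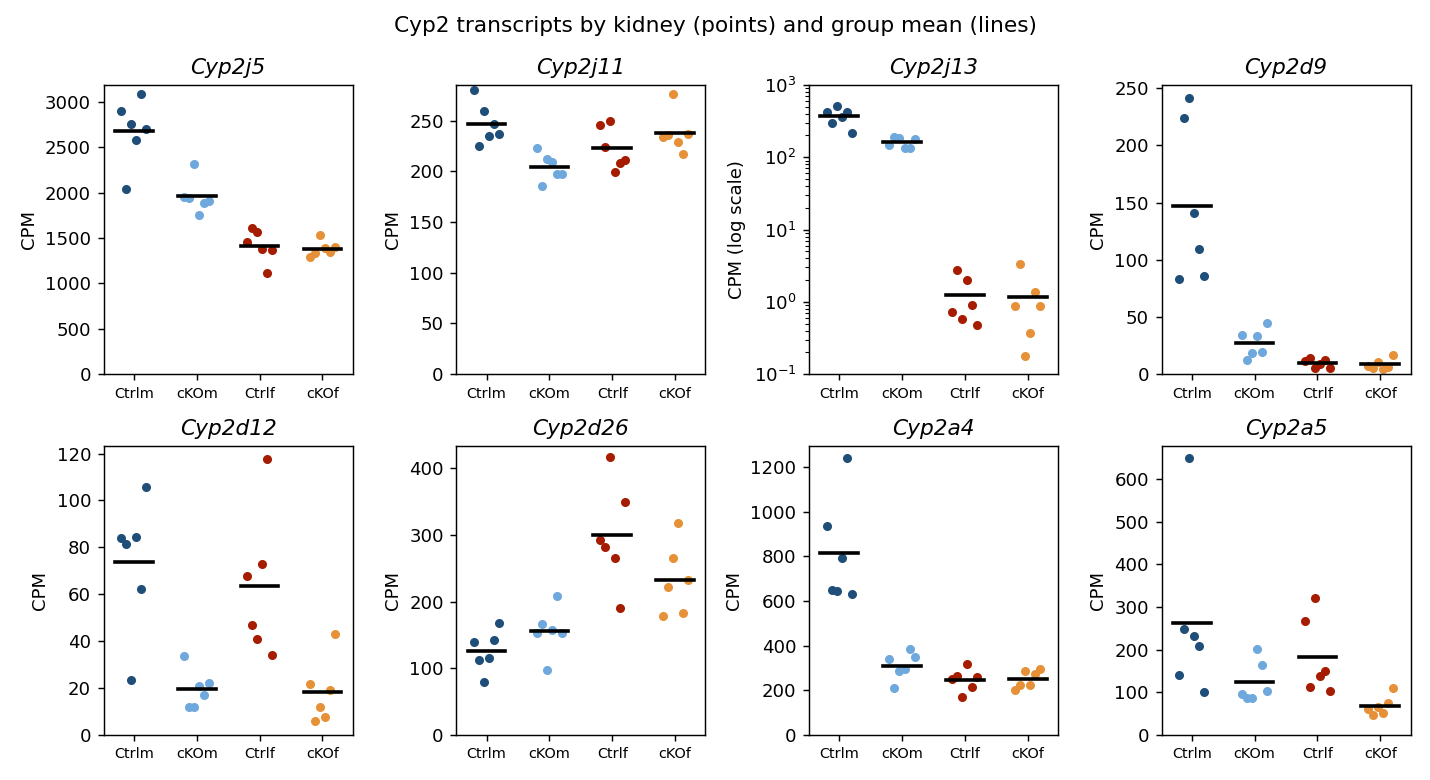
CPM of the 8 Cyp2 genes in each kidney (points, 6 per group) with the group mean (line). The axis of Cyp2j13 is logarithmic and the others start at 0. The cKOm kidneys lie below every Ctrlm kidney for Cyp2j11, Cyp2j13, Cyp2d9 and Cyp2a4, and the Cyp2j13 level is near 1 CPM in both female groups.

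Cyp2j5, a renal arachidonic acid epoxygenase, was the most abundant of the 8 genes. In Ctrlm kidneys it was 2039 CPM in the lowest, 2728 at the median and 3090 in the highest, and in cKOm kidneys 1759, 1927 and 2317. The ranges overlapped through 1 Ctrlm kidney at 2039 and 1 cKOm kidney at 2317. The log2 change in males was -0.45 (SE 0.09, edgeR adjusted p = 0.0025). Ctrlf kidneys had 1111, 1415 and 1611 CPM and cKOf kidneys 1294, 1364 and 1533. The female groups covered the same range, with a log2 change of -0.03 (SE 0.09, adjusted p = 0.917). Whether the male and female changes differed was tested as an interaction, which did not pass (-0.41, SE 0.13, adjusted p = 0.0999). It passed in 2 of 33 alternatives, DESeq2 (-0.43, adjusted p = 0.0370) and the edgeR fit without Ctrlm mouse 2 (-0.48, adjusted p = 0.0215).

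Cyp2j11, a neighbour of Cyp2j5 in the same cluster, had a coefficient of variation of 6.53 to 9.35% within groups, the lowest of the 8 genes in every group but cKOf, where Cyp2j5 had 6.04%. Its level was 225, 242 and 281 CPM (lowest, median and highest) in Ctrlm and 186, 203 and 223 in cKOm kidneys. These ranges did not overlap, by a narrow margin, and the log2 change was -0.28 (SE 0.07, edgeR adjusted p = 0.0274). In females the levels were 199, 218 and 250 CPM in Ctrlf and 217, 235 and 277 in cKOf kidneys. The female ranges overlapped and the log2 change was 0.10 (SE 0.07, adjusted p = 0.608). The interaction did not pass (-0.37, SE 0.11, adjusted p = 0.0623), though it did in DESeq2 (adjusted p = 0.0155), with the replicate block (0.0388), with a filter of 1 CPM in 6 kidneys (0.0413) and without Ctrlm mouse 2 (0.0434), Ctrlm mouse 6 (0.0383), Ctrlf mouse 1 (0.0487) or Ctrlf mouse 3 (0.0443). The male call was lost without the 5 kidneys with hepatocyte transcripts (log2 change -0.29, adjusted p = 0.227), with the hepatocyte score as a covariate (adjusted p = 0.153), and without Ctrlm mouse 1 (adjusted p = 0.0861), Ctrlm mouse 3 (0.0633), cKOm mouse 2 (0.0797) or cKOm mouse 6 (0.0613).

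Cyp2j13, the third gene of the cluster, was found almost entirely in males. Its level was 216, 391 and 518 CPM (lowest, median and highest) in Ctrlm and 133, 162 and 189 in cKOm kidneys. Every cKOm kidney was below every Ctrlm kidney, with a log2 change of -1.21 (SE 0.28, edgeR adjusted p = 0.00836). In females it was 0.476, 0.804 and 2.78 CPM in Ctrlf and 0.180, 0.881 and 3.31 in cKOf kidneys, from 4 to 71 reads per kidney. At this depth a female change was not detectable (log2 change -0.08, SE 0.47, adjusted p = 0.964), and the interaction did not pass (-1.13, SE 0.55, adjusted p = 0.371). The male call was lost without the 5 kidneys with hepatocyte transcripts (log2 change -0.98, adjusted p = 0.298), with the hepatocyte score as a covariate (adjusted p = 0.161) and in DESeq2 (-1.23, adjusted p = 0.104).

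Cyp2d9, a steroid 16-alpha-hydroxylase known for its male-biased level in liver, had the largest male change of the 8 genes. It was 83.6, 125 and 241 CPM (lowest, median and highest) in Ctrlm and 12.2, 26.5 and 44.5 in cKOm kidneys. The highest cKOm kidney was below the lowest Ctrlm kidney, and the log2 change was -2.44 (SE 0.34, edgeR adjusted p = 2.38e-05), 5.45 times less on the scale of the means. In females it was 4.94, 10.03 and 13.8 CPM in Ctrlf and 4.55, 6.98 and 17.1 in cKOf kidneys. The female groups overlapped throughout (log2 change -0.17, SE 0.36, adjusted p = 0.887). The male change was the greater (interaction -2.27, SE 0.49, adjusted p = 0.00801). An interaction passed in 2.31% of all genes (1.49% with the lower change in males), and in 2 of the 8, Cyp2d9 and Cyp2a4.

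Among the Ctrlm kidneys, the Cyp2d9 values with and without hepatocyte transcripts overlapped. It was 83.6 to 241 CPM in the 4 Ctrlm kidneys with these transcripts and 86.1 and 109 in the 2 without, and the single cKOm kidney with them had 33.6 CPM. Without the 5 kidneys the male log2 change was -1.96 (SE 0.43, edgeR adjusted p = 0.0149), and the 2 remaining Ctrlm kidneys were still above all 5 cKOm kidneys, which had at most 44.5 CPM. The interaction was -1.78 without them (adjusted p = 0.123) and so no longer passed, nor did it with the hepatocyte score as a covariate (adjusted p = 0.057) or with its near-identical copies counted together (adjusted p = 0.479). The male change with that covariate was -1.98 (SE 0.37, edgeR adjusted p = 0.00172). Beyond these fits, how much of the change came from liver RNA was not tested.

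Cyp2d12, 92.1% identical to Cyp2d9 in its coding sequence, fell in both sexes. Its level was 23.4, 82.7 and 106 CPM (lowest, median and highest) in Ctrlm and 11.9, 18.9 and 33.7 in cKOm kidneys. In females it was 34.2, 57.3 and 118 CPM in Ctrlf and 5.79, 15.6 and 43.0 in cKOf kidneys. Each pair of groups overlapped through a single kidney at one end, Ctrlm mouse 3 at 23.4 CPM and cKOf mouse 6 at 43.0. The log2 change was -1.91 in males (SE 0.40, edgeR adjusted p = 0.00269) and -1.80 in females (SE 0.39, adjusted p = 0.0048). The difference between these changes was -0.11 (SE 0.54, adjusted p = 0.951), a wide error that leaves room for unequal changes.

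Cyp2d26, a Cyp2d gene further from the other two (81.8% identical to Cyp2d9), was the one gene of the 8 that passed as higher in females among controls. It was 79.5, 128 and 168 CPM (lowest, median and highest) in Ctrlm, 96.6, 156 and 208 in cKOm, 191, 287 and 417 in Ctrlf and 178, 227 and 318 in cKOf kidneys. Both genotype comparisons overlapped. The log2 change was 0.30 in males (SE 0.18, edgeR adjusted p = 0.455) and -0.36 in females (SE 0.18, adjusted p = 0.342). The interaction of 0.67 did not pass either (SE 0.26, adjusted p = 0.224). Without the 5 kidneys with hepatocyte transcripts the male value was -0.03 (adjusted p = 0.977).

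Cyp2a4, a steroid 15-alpha-hydroxylase, was the second most abundant of the genes in males. It was 632, 720 and 1241 CPM (lowest, median and highest) in Ctrlm and 210, 316 and 386 in cKOm kidneys. Every cKOm kidney was below every Ctrlm kidney, with a log2 change of -1.39 (SE 0.17, edgeR adjusted p = 2.04e-06). The female levels were 170, 254 and 316 CPM in Ctrlf and 201, 247 and 294 in cKOf kidneys. These groups overlapped throughout (log2 change 0.03, SE 0.16, adjusted p = 0.968), and the male and female changes differed (interaction -1.42, SE 0.23, adjusted p = 0.000523). Unlike for Cyp2d9, the 2 Ctrlm kidneys without hepatocyte transcripts, at 632 and 1241 CPM, spanned the range of the 4 with them, at 646 to 934. Without the 5 kidneys the change was -1.62 (adjusted p = 0.000226) and the interaction -1.64 (adjusted p = 0.0036).

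Cyp2a5, the coumarin 7-hydroxylase, fell in females. It was 101, 221 and 649 CPM (lowest, median and highest) in Ctrlm, 86.8, 99.7 and 202 in cKOm, 103, 144 and 322 in Ctrlf and 47.1, 63.3 and 111 in cKOf kidneys. Males overlapped widely, while in females only cKOf mouse 6 at 111 CPM reached the Ctrlf range. The female log2 change of -1.41 passed (SE 0.35, edgeR adjusted p = 0.0156), and the male change of -1.10 did not (SE 0.35, adjusted p = 0.0698). The test of the difference gave 0.31 (SE 0.49, adjusted p = 0.835), so that the changes were not shown to differ between the sexes. In males the value was smaller without the 5 kidneys with hepatocyte transcripts, at -0.57 (adjusted p = 0.572), and without Ctrlm mouse 3, the one at 649 CPM, at -0.60. It passed when adjusted within the male test alone (adjusted p = 0.0388), with every gene that had a count (0.0358) and without Ctrlm mouse 1 (0.0489), Ctrlm mouse 6 (0.02) or cKOm mouse 4 (0.0376). In females the call was lost without Ctrlf mouse 3, at 322 CPM (adjusted p = 0.0521), and when adjusted within the female test alone (adjusted p = 0.114).

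**Figure D2:**
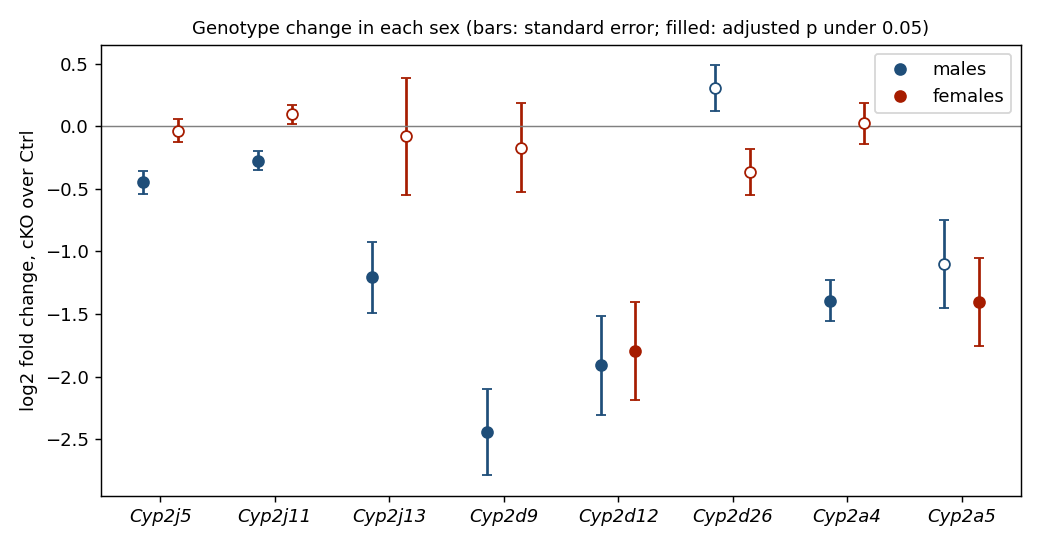
Log2 fold change of cKO over Ctrl mice for each Cyp2 gene, in males (blue) and females (red), with a standard error as bars. The error is the absolute log2 change divided by the square root of edgeR's F statistic. Filled points have an adjusted p under 0.05: 6 genes in males and 2 in females, all below 0.

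The ratio of the copies was compared within each kidney, after the levels had been seen. In females Cyp2a5 and Cyp2d12 had already passed as lower, and Cyp2a4 and Cyp2d9 had not passed. The female ratio tests below largely restate those calls and are not separate support. Their adjustment over 6 comparisons does not cover this choice. There were 4.67 reads on Cyp2a4 per read on Cyp2a5 at the median of Ctrlm kidneys (0.995 to 6.61), 2.84 in cKOm (1.46 to 3.49), 1.85 in Ctrlf (0.526 to 2.51) and 3.92 in cKOf kidneys (2.65 to 4.74). Every cKOf kidney had a higher ratio than every Ctrlf kidney, while the male ranges overlapped. On the log2 scale the ratio was higher by 1.36 in cKOf than in Ctrlf kidneys (two-sided exact permutation test, p = 0.00216, 0.00433 adjusted over 6 such comparisons), and the male difference of -0.46 did not pass (p = 0.361). Counted together as 1 gene, Cyp2a4 and Cyp2a5 had a log2 change of -1.32 in males (edgeR adjusted p = 1.93e-06) and -0.43 in females (adjusted p = 0.127). In the Cyp2d group, Cyp2d9 had 1.71 reads per read on Cyp2d12 at the median of Ctrlm and 0.140 in Ctrlf kidneys, and that ratio too was higher in cKOf than in Ctrlf kidneys, by 1.77 on the log2 scale (exact permutation test, p = 0.00216, 0.00433 adjusted), with a male difference of -0.58 (p = 0.368). Counted together with Cyp2d10, Cyp2d11 and Cyp2d12, it had a log2 change of -2.24 in males (adjusted p = 7.38e-05) and -1.44 in females (adjusted p = 0.00875). The female sum was carried by Cyp2d12.

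**Figure D3:**
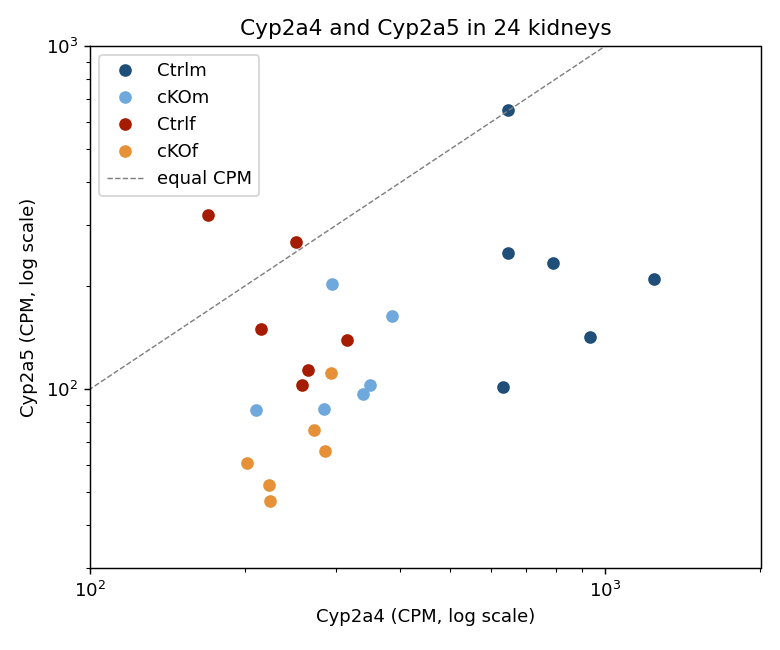
Cyp2a5 against Cyp2a4 in each of the 24 kidneys, in CPM on logarithmic axes, with the dashed line where both are equal. Ctrlm kidneys stand to the right of all others through Cyp2a4, which was at least 632 CPM there, and cKOf kidneys stand below most others through Cyp2a5, which was at most 111 CPM.

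The sexes were compared within each genotype. Among controls, 4 were higher in males (8.72% of all genes were), namely Cyp2j13, Cyp2d9, Cyp2a4 and Cyp2j5, and Cyp2d26 was lower (8.11% of all genes). These 5 did not overlap between Ctrlm and Ctrlf kidneys, which was so for 7.35% of all genes. Cyp2j13 was 299.6 times higher in the mean of Ctrlm mice (log2 difference 8.22, SE 0.41), Cyp2d9 15.5 times (3.95, SE 0.37), Cyp2a4 3.32 times (1.73, SE 0.17) and Cyp2j5 1.89 times (0.92, SE 0.09), and Cyp2d26 was 2.37 times higher in the mean of Ctrlf mice (-1.25, SE 0.19). The edgeR adjusted p was at most 1.44e-05 for all 5. Cyp2j11, Cyp2d12 and Cyp2a5 did not pass, with log2 differences of 0.15 (SE 0.07), 0.21 (SE 0.38) and 0.53 (SE 0.35).

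In cKO mice, Cyp2j13 (log2 difference 7.10, SE 0.40), Cyp2d9 (1.68, SE 0.35) and Cyp2j5 (0.51, SE 0.09) were still higher in males, as were 4.14% of all genes. The Cyp2d9 difference did not pass with its near-identical copies counted together (0.81, edgeR adjusted p = 0.147). None of the 8 passed as lower in males in edgeR, as 4.00% of all genes did. Cyp2d26 and Cyp2j11 had an unadjusted p under 0.05 in that direction, Cyp2d26 passed in limma-voom and DESeq2, and Cyp2j11, at 204 ± 13.3 CPM in cKOm and 238 ± 20.2 in cKOf kidneys (log2 difference -0.22, adjusted p = 0.0643), passed in DESeq2 (0.0443), with the replicate block (0.0413) and with cKO mice fitted alone (0.0469). Cyp2a4 was 310 ± 61.6 CPM in cKOm and 250 ± 38.7 in cKOf kidneys (SD, n = 6, log2 difference 0.31, SE 0.16, edgeR adjusted p = 0.27). Cyp2d26 was at -0.58 (SE 0.18, adjusted p = 0.0502). The male genotype comparison and the comparison of control sexes share the Ctrlm kidneys, so that a chance deviation of these would enter both.

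For single genes, the exact permutation test over all arrangements of 6 mice against 6 gave 0.00216, the smallest p it can give, for Cyp2j11, Cyp2j13, Cyp2d9 and Cyp2a4 between cKOm and Ctrlm mice (two-sided). It gave 0.00433 for Cyp2j5 and Cyp2d12, 0.0455 for Cyp2a5 and 0.184 for Cyp2d26. Between cKOf and Ctrlf mice it gave 0.00433 for Cyp2a5, 0.00649 for Cyp2d12 and at least 0.119 for the other 6. These values are not adjusted for the 8 genes compared.

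**Figure D4:**
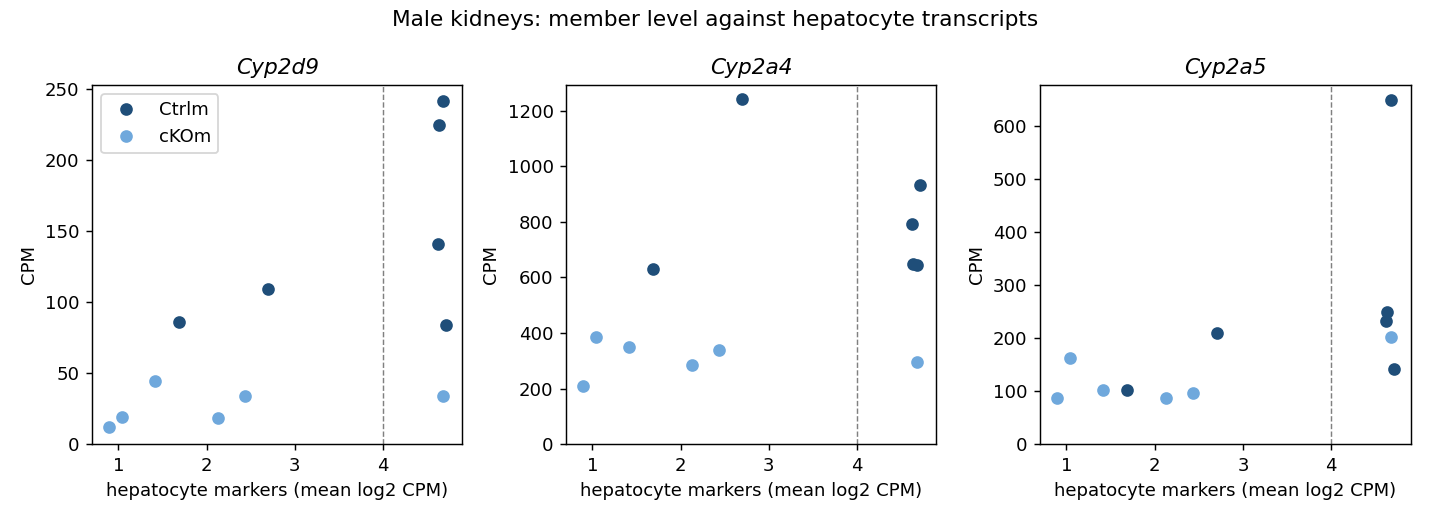
CPM of Cyp2d9, Cyp2a4 and Cyp2a5 in the 12 male kidneys against the mean log2 CPM of 19 hepatocyte markers, with the dashed line at 4. To its right are 4 Ctrlm kidneys and 1 cKOm kidney, with the highest Cyp2d9 and Cyp2a5 values among them, and the highest Cyp2a4 value lies to its left.

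Levels of different genes were compared per kilobase of annotated exons. Cyp2j5 was first in all 4 groups, from 589 ± 35.6 CPM per kilobase in cKOf to 1142 ± 154 in Ctrlm kidneys, above the next gene in every kidney. It made up 56.3% of the summed CPM of the 8 genes at the median of Ctrlm kidneys and 65.1% in cKOm kidneys. In Ctrlm mice Cyp2a4 followed at 469 ± 138, then Cyp2j11 at 129 ± 10.51 and Cyp2a5 at 127 ± 95.0, which overlapped. Cyp2j13, Cyp2d26 and Cyp2d9 came next at 79.5 ± 22.5, 70.5 ± 17.1 and 55.5 ± 26.1, each overlapping its neighbour, and Cyp2d12 was last at 18.95 ± 7.25. In Ctrlf mice the second place was taken by Cyp2d26 at 167 ± 43.0, which overlapped Cyp2a4 at 141 ± 28.4, and Cyp2j13 was last at 0.265 ± 0.200. Over the length of the coding transcript alone, Cyp2d9 had 86.1 ± 40.5 CPM per kilobase in Ctrlm mice and so came before Cyp2j13 (85.3 ± 24.2) and Cyp2d26 (74.3 ± 18.1), all 3 overlapping, and Cyp2a5 (131 ± 97.8) came before Cyp2j11. Cyp2d12 stayed last at 44.5 but then overlapped Cyp2d26.

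Summed over the 8 genes, Ctrlm kidneys had 4725 ± 616 CPM and cKOm kidneys 2965 ± 150, while Ctrlf kidneys had 2439 ± 265 and cKOf kidneys 2199 ± 170 (SD, n = 6). The lowest Ctrlm kidney, at 3876, was above the highest cKOm kidney, at 3215.

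The 8 genes did not follow each other closely within groups. After each group's mean was taken off, Cyp2j5 and Cyp2j11 had a Pearson r of 0.56 over the 24 kidneys, Cyp2d9 and Cyp2a5 0.48 and Cyp2d9 and Cyp2d12 0.41, while Cyp2j13 and Cyp2d26 had -0.45, Cyp2d9 and Cyp2d26 -0.43 and Cyp2a4 and Cyp2a5 -0.08. The points share libraries and their depth, and these values are descriptions. Among 16084 other genes, those most like each gene over the 24 kidneys, with r on log2 CPM and r within groups, were as follows. Cyp2j5 was most like Galnt1 (0.97, within groups 0.77) and Acsm2 (0.96, 0.64). Cyp2j11 was most like Cat, the peroxisomal catalase (0.79, 0.62), and Entpd5 (0.75, 0.49). For Cyp2j13 they were Ugt2b38 (0.99, 0.67) and the Y-linked Eif2s3y (0.98, 0.70), for Cyp2d9 Azgp1 (0.96, 0.63) and Mpped1 (0.96, 0.70), and for Cyp2d12 the urea cycle gene Ass1 (0.76, 0.34) and Sema4d (0.75, 0.32). For Cyp2d26 they were Afm (0.90, 0.72) and Slc22a29 (0.88, 0.59), for Cyp2a4 the peptidase genes Lap3 (0.95, 0.58) and Cndp2 (0.94, 0.60), and for Cyp2a5 Trim7 (0.76, 0.56) and Wdr31 (0.76, 0.59). Values within groups were lower throughout, since much of the likeness lies between sexes and genotypes.

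Partners of the P450 enzymes were compared in the same fit. For this and the following lists, the share of all genes that passed was 9.05% in males and 0.851% in females. It was 3.75% in males without the 5 kidneys with hepatocyte transcripts. The 2 of 16 partners, and the 1 of 16 partners and 1 of 23 regulators left without those kidneys, lie near the male shares. They are no result about a list as a whole. Of 16 genes for electron transfer and heme supply, 2 fell in cKOm mice and none changed in cKOf mice (edgeR, 2 at an unadjusted p under 0.05), with medians of -0.10 and 0.06. Cyb5a, cytochrome b5, was 594, 847 and 1060 CPM (lowest, median and highest) in Ctrlm and 415, 431 and 489 in cKOm kidneys, without overlap (log2 change -0.93, SE 0.10, adjusted p = 8.3e-07). Uros, of heme synthesis, fell by 0.48 on the log2 scale (adjusted p = 0.0211). The reductase Por (-0.39, adjusted p = 0.0684), Alad (-0.45, adjusted p = 0.156) and Hmox1 (-0.47, adjusted p = 0.159) did not pass. Cyb5a still fell without the 5 kidneys with hepatocyte transcripts (-0.93, adjusted p = 0.00164) and Uros did not pass (-0.64, adjusted p = 0.0675).

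Of 23 regulators known to act on Cyp2 genes, 3 rose and 1 fell in cKOm mice and none passed in cKOf mice (edgeR, 3 at an unadjusted p under 0.05), with medians of 0.13 and -0.05. Prlr, the prolactin receptor, was 3.91, 12.7 and 60.1 CPM (lowest, median and highest) in Ctrlm and 101, 143 and 157 in cKOm kidneys, without overlap, against 277 to 423 in Ctrlf kidneys (male log2 change 2.54, adjusted p = 4.32e-05). Nr1i2, the xenobiotic sensor PXR, rose by a log2 change of 0.73 (adjusted p = 0.000323) and Esr1, the estrogen receptor, by 0.50 (adjusted p = 0.033), while Ghr, the growth hormone receptor, fell by 0.33 on the log2 scale (adjusted p = 0.0175). Stat5a had 0.43 (adjusted p = 0.0633). Of the 23, 1 passed without the 5 kidneys with hepatocyte transcripts, Prlr (3.83, adjusted p = 1.88e-06), while Nr1i2 had 0.52 (adjusted p = 0.175), Esr1 0.52 (adjusted p = 0.217) and Ghr -0.34 (adjusted p = 0.198).

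Of 10 androgen-responsive kidney genes, 7 fell and 1 rose in cKOm mice, with a median log2 change of -1.41. In cKOf mice 1 rose, Cyp4a12a, by a log2 change of 1.94 (edgeR adjusted p = 0.00426), and the median was 0.02. Slco1a1, an organic anion transporter, was 207, 275 and 509 CPM (lowest, median and highest) in Ctrlm and 0.223, 1.38 and 3.44 in cKOm kidneys, with no overlap. Acsm3 had a log2 change of -4.01, Kap, a kidney androgen-regulated protein, -1.47 and Odc1, of polyamine synthesis, -1.37 (each with adjusted p of at most 3.37e-05). Slc7a12, which is higher in females, rose by a log2 change of 3.25. In the fit without the 5 kidneys with hepatocyte transcripts 6 fell and 1 rose, with a median of -1.53. The list was chosen with earlier results of these data known and is not independent support for a direction.

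Of 18 genes tested around arachidonic acid oxidation, 6 rose and 3 fell in cKOm mice and 4 rose and 1 fell in cKOf mice, with medians of 0.12 and 0.22. The fatty acid omega-hydroxylases Cyp4a31, Cyp4a10 and Cyp4a12b rose in both sexes, by log2 changes of 1.50, 1.55 and 2.13 in males and 0.85, 1.09 and 2.71 in females (each with an edgeR adjusted p of at most 0.000564). Cyp4a14 was 5.73, 19.7 and 216 CPM (lowest, median and highest) in Ctrlm and 938, 1069 and 1275 in cKOm kidneys, without overlap (log2 change 4.33, adjusted p = 5.52e-06). Ephx2, the soluble hydrolase that opens the epoxides, fell by 0.88 on the log2 scale in males (adjusted p = 1.32e-06) and had 0.18 in females (adjusted p = 0.402). The gene that fell in females was Cyp2c23, an epoxygenase, by 0.56 (adjusted p = 0.0239), named here after its value was seen. With the 5 kidneys with hepatocyte transcripts left out, 4 rose in males, Cyp4a31, Cyp4a10, Cyp4a12b and Cyp4a14 (3.34, adjusted p = 0.0079), and 1 fell, Ephx2 (-0.97, adjusted p = 0.000342).

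Of the other 40 Cyp2 genes, 28 were tested. In cKOm mice 8 fell, with a median of -1.61 over the 28, and in cKOf mice 1 fell, Cyp2c23 again, with a median of 0.07. Cyp2e1, which oxidizes ethanol and ketones, was the abundant one, at 1395, 1609 and 3015 CPM (lowest, median and highest) in Ctrlm and 701, 828 and 1095 in cKOm kidneys, without overlap (log2 change -1.16, edgeR adjusted p = 0.00139). The other 7, among them Cyp2b9, Cyp2c40, Cyp2c68 and Cyp2a22, had a mean under 5 CPM in every group. In all 8 the highest value of the male kidneys was in a Ctrlm kidney with hepatocyte transcripts. A gene was tested once 1 kidney reached 1 CPM, and some reached it only in kidneys with hepatocyte transcripts. Cyp2a22 had up to 2.22 CPM in such Ctrlm kidneys and 0 in every other male kidney. For such genes the filter fixed the direction in advance, so their fall and the median of -1.61 are no separate result. When the 5 kidneys were left out, 16 of these genes were tested and 1 fell, Cyp2e1 (-1.16, adjusted p = 0.0492), and the median was 0.11.

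Marker lists of tubule segments moved with the male comparison too. Of 5 markers of the S3 segment of the proximal tubule, 4 fell in cKOm mice. The summed level of the 5 was 2849 to 4581 CPM in Ctrlm, 958 to 1409 in cKOm, 947 to 1287 in Ctrlf and 939 to 1299 in cKOf kidneys. Between control sexes, 3 of the 5 passed as higher in males, Slc7a13 (log2 difference 8.51), Acy3 (1.75) and Slc5a8 (1.24), and 1 as lower, Slc5a1 (-0.60). Slc7a13 is also on the androgen-responsive list. This sum is therefore not a measure of S3 cells alone. The fifth marker, Slc22a7, did not pass between control sexes (-0.20, edgeR adjusted p = 0.677). In males without the 5 kidneys with hepatocyte transcripts, Slc22a7 had a log2 change of -4.56 (adjusted p = 3.66e-08). Of 8 markers of the whole proximal tubule, 4 fell in cKOm mice, and the sum was 10348 to 11741 CPM in Ctrlm and 8721 to 9796 in cKOm kidneys. None of 4 markers of S1 to S2 passed in males (edgeR, 2 at an unadjusted p under 0.05), with a sum of 845 to 1208 CPM in Ctrlm and 1191 to 1457 in cKOm kidneys. The S3 markers that fell were 4, and the whole-tubule markers 1, without the 5 kidneys with hepatocyte transcripts. Markers of other cells passed in males too, namely Slc12a1 of the thick ascending limb (0.33, adjusted p = 0.0116), Scnn1b (0.35, adjusted p = 0.0103) and Slc4a1 (-0.68, adjusted p = 0.00258) of the collecting duct, and Csf1r of macrophages (-0.34, adjusted p = 0.0398), which make 1 of 4, 2 of 6 and 1 of 4 markers of their lists. Without the 5 kidneys with hepatocyte transcripts, Slc4a1 still passed (-0.85, edgeR adjusted p = 0.0235). Slc12a1 (0.36, adjusted p = 0.168), Scnn1b (0.40, adjusted p = 0.13) and Csf1r (-0.35, adjusted p = 0.292) then did not pass. The summed macrophage markers were 70.4 to 97.4 CPM in Ctrlm and 55.0 to 77.6 in cKOm kidneys. Of 3 markers of the distal convoluted tubule, 3 of podocytes and 4 of endothelium, none passed in males (edgeR, 1 of each at an unadjusted p under 0.05). No marker of these lists was at 0, and their part in the Cyp2 changes was not tested. In whole kidney, fewer cells of a type and less RNA per cell cannot be told apart.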

How the data were processed

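The authors trimmed the reads with cutadapt 1.8, aligned them to GRCm38 with STAR 2.5.3a and counted them per gene with HTSeq 0.9.1, and deposited whole read counts for each of 24 kidneys, without normalization, for 55335 genes. The 5 closing lines (reads on no gene, ambiguous, of low quality, not aligned or aligned more than once) stayed out of library sizes. Alignments at more than 1 place made up 26.9 to 34.8% of the alignments tallied. Gene names, positions and transcripts came from the GENCODE annotation of GRCm38, which matched 55154 genes.

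The 16092 genes that reached 1 CPM in 1 or more kidneys were fitted in edgeR 4.0.16 (R 4.3.3) with TMM and 1 model for the 4 groups. Benjamini-Hochberg adjustment of the quasi-likelihood p-values pooled both genotype tests, whereas the interaction and each comparison of sexes were adjusted on their own across genes. Each SE given with an edgeR value is the absolute log2 change divided by the square root of the quasi-likelihood F statistic. The log2 CPM used a prior count of 2. The members, lists and the rule for named genes (the 8 members, Pex5, up to 5 genes a list by male p, the 2 most alike genes per member, near-identical copies and markers beside a result) were chosen with earlier results of these data known. Since the files hold counts, limma-voom, the study's method, was here an alternative (run in limma 3.58.1). Further alternatives were DESeq2 1.42.0, RLE normalization, other filters, subsets fitted alone, adjustment within a sex, a hepatocyte score as a covariate, near-identical copies summed and each mouse left out.

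Kidneys of one group differed by more than sampling noise (chi-square per degree of freedom of 9.93 to 100 over 60 pairs), and the number of mice, 6 per group, limits the precision more than depth does. Same-numbered kidneys came from different mice and were not paired. The ratios between near-identical copies were compared after the levels had been seen. The procedure was tested on simulated data. Python 3.11.15, pandas 2.3.3, scipy 1.17.1 and matplotlib 3.10.9 made tables, permutation tests and figures.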

Additional observations from a re-analysis of the deposited data

Results flagged for a closer look

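Among 32 sets of 6 kidneys (8 genes in 4 groups), 3 held a kidney far from its group, where chance flags about 1 group in 20. The highest cKOm kidney for Cyp2j5, mouse 3, had 2317 CPM and the next 1955. The highest cKOf kidney for Cyp2j11, also mouse 3, had 277 CPM and the next 237. The highest Ctrlm kidney for Cyp2a5, mouse 3, had 649 CPM and the next 249, and it was one of the kidneys with hepatocyte transcripts.

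In 2 of the 8 genes the genotype change differed between the sexes in edgeR's interaction test. The male minus female log2 change was -2.27 for Cyp2d9 (adjusted p = 0.00801) and -1.42 for Cyp2a4 (adjusted p = 0.000523). Over 33 alternatives the adjusted p ranged from 0.00162 to 0.479 for Cyp2d9 and from 9.29e-08 to 0.0235 for Cyp2a4.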

How the results depend on the processing

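Of 984 values of single genes under the alternatives, 915 kept their direction and their side of the threshold, 16 lost the call, 31 gained it and 22 turned direction. The number of the 8 genes that passed in males, 6, was 4 with the hepatocyte score as a covariate and 4 without the 5 kidneys with hepatocyte transcripts. The share of all genes that passed in males moved too, from 9.05% to 5.47% with the covariate and 3.75% without those kidneys. In females, 2 passed, beside 0.851% of all genes, and 1 when adjusted within the female test. For the interaction, 2 passed, but 4 in DESeq2, 1 with the hepatocyte covariate and 1 without those 5 kidneys. Of all genes, 2.31%, 3.57%, 1.67% and 1.59% passed, in the same order. For the sexes of cKO mice, 3 passed, but 5 in DESeq2 and 6 with cKO mice fitted alone. The share of all genes was 8.14% in the main fit and 10.1% in DESeq2. With 1 mouse left out at a time, the counts were 5 to 7 in males, 1 to 2 in females, 2 to 4 for the interaction, 5 in every case for controls and 3 to 4 for cKO mice. The share of all genes is not given for these counts, for cKO mice fitted alone or for adjustment within the female test. Such counts therefore do not tell a move of the 8 genes from a move of all genes. The replicate numbers name different mice. A fit with the replicate block gave 6, 2, 3, 5 and 4 for the same 5 comparisons. Of all genes, 7.88%, 0.684%, 1.68%, 15% and 7.08% passed there.

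Values that turned direction were all of genes that did not pass. Without the hepatocyte-rich kidneys Cyp2d26 was -0.033 in males and Cyp2a5 -0.20 between control sexes, and with the covariate the latter was -0.22. With the copies counted together, Cyp2a4 was -0.43 in females and Cyp2a5 -0.89 for the interaction, which then passed. The Cyp2d12 interaction was 0.13 in limma-voom and 0.016 with the replicate block. With 1 mouse left out, the female change ranged from -0.093 to 0.0066 for Cyp2j5, -0.73 to 0.31 for Cyp2j13 and -0.061 to 0.10 for Cyp2a4, the Cyp2d12 interaction from -0.41 to 0.34, and its difference between sexes of cKO mice from -0.12 to 0.55. The cause of these shifts was not tested, save that the subsets hold fewer mice.

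Depth limits Cyp2j13 in females, at 4 to 71 reads per kidney. Male calls of Cyp2j5, Cyp2d9, Cyp2d12 and Cyp2a4 passed under all 23 alternatives run for them.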
